A study of Mus musculus with 27 samples.

Results

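Of 458 genes measured by allele on mouse chromosome 15, 58 (12.7%) leaned to the 129S copy in their assigned reads. They were chosen by their mean allelic ratio over 8 libraries, which had to be at least 0.6. The ratio is read here as the 129S share of a gene's reads that could be assigned to a strain. A ratio of 0.5 is balance, and 0.6 is 1.50 129S reads for each Cast read. Since these values chose the genes, their levels below are a description and carry no test. The same cut on the other side, at most 0.4, held 35 genes biased to Cast, and 365 genes lay between.

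The study followed Xist RNA on the X chromosome by sequencing RNA bound to chromatin, which is rich in nascent transcripts. All 8 libraries came from female mouse embryonic stem cells of a 129S X Cast cross, which carry one chromosome 15 of each strain. In all of them the 129S copy of Xist was under a doxycycline-inducible TetOn promoter and had Bgl stem-loops at its end. WT cells without doxycycline, WT cells with 24 h of doxycycline at 1.0 to 1.5 µg/mL, SpenKO cells without it and SpenKO cells with 24 h of it were each sequenced as 2 libraries. SpenKO stands for loss of Spen, a protein that Xist RNA recruits to silence genes; Spen itself is not on the chromosomes measured here, so its loss was not checked. The cells grew on mitomycin-inactivated mouse fibroblasts, whose strain is not given in the sources used here. The libraries were assigned to these lines by their column names, although the labels attach the table to samples with an Xist transgene, so which lines the 8 columns hold is not certain. The labels name no separate clones or cultures, so the p-values rest on differences between libraries that could be technical repeats.

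In a cell of a cross between strains, both copies of a gene share the same nucleus and the same transcription factors. A lasting difference between the copies is therefore usually traced to the DNA beside the gene, such as promoters, enhancers and splice sites that differ between strains. Imprinting also gives unequal copies, but by parent of origin, and reads of one strain can be lost in mapping. Cast comes from another mouse subspecies than 129S and differs from it at many sites, which is why such crosses are used to tell alleles apart.

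The files do not name the allele in the numerator. The Xist ratio in the same 8 libraries, in the companion X chromosome table, ran from 0.933 to 0.999, and the inducible Xist is on the 129S copy, so high ratios are read here as 129S. Read counts were not among the values used, and the depth behind each ratio is not given. Some ratios, such as 0.48 for Slc39a4 and 0.6 for 9430069I07Rik, are simple fractions that few reads can give. Depth was not worked out from them. The library medians over all 458 genes lay between 0.513 and 0.519, and those over the 58 genes between 0.641 and 0.681. The ratios of replicate libraries correlated across genes by 0.846 to 0.859.

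The promoter windows of 3 of the genes are shown because Cdh18 had the highest mean ratio of the 458 genes, and because Gtsf1 and Pde1b belong to a block of 4 neighbouring genes that all leaned to 129S. They run from 250 bases before to 50 bases after the transcription start, 5′ to 3′ on the strand of the gene, from RefSeq on GRCm38.p6. The letters are those of the reference mouse, so they do not show the 129S or Cast differences. Capitals mark the dinucleotide CG, which reads the same on both strands.
Cdh18 (chr15:23036213-23036512, plus strand): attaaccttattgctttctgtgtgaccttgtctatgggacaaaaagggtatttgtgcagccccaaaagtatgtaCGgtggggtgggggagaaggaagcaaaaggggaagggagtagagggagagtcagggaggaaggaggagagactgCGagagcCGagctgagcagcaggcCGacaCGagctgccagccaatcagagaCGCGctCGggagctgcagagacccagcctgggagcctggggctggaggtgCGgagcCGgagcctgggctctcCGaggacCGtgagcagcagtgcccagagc
Gtsf1 (chr15:103430378-103430677, minus strand): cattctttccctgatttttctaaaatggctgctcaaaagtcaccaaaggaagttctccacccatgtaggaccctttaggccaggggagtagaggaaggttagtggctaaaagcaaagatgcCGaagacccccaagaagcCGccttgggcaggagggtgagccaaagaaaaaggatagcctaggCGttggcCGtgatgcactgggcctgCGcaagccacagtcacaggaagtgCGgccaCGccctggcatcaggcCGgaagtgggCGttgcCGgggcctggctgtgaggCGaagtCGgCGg
Pde1b (chr15:103502784-103503083, plus strand): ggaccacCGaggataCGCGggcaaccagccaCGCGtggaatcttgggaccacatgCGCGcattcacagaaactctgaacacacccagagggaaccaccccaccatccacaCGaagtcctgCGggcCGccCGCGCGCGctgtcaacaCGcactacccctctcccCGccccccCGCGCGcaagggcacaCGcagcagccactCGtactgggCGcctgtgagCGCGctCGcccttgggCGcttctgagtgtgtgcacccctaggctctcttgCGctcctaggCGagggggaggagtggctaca

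The Cdh18 window holds 12 CG, and 39.6% of 32851 mouse promoter windows of this length in the same RefSeq table hold at least as many. The Gtsf1 window holds 13, a number that 37.9% of windows reach. The Pde1b window, the one of 3 RefSeq starts nearest to the start in the deposited table, holds 28, a number that 14.2% reach. The median over all windows is 7. RefSeq windows matched 32 of the 58 genes, so no CG comparison was made over the set.

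The highest mean ratios were those of an adhesion gene and a membrane complex gene. As lists, 2 of 3 measured cadherins and 3 of 15 matrix and adhesion genes were members, the latter list having a median of 0.548 and a lowest gene, Adamts12, at 0.354. Cdh18, a classical cadherin that joins cells through calcium-dependent contacts, lay at chr15:23036462-23474418 and had a mean ratio of 0.988 ± 0.00844 (SD, n = 8). In WT it read 0.986 and 1.00 without doxycycline and 0.980 and 0.982 with it, and in SpenKO 0.99 and 0.984 without and 1.00 and 0.978 with it. All 8 libraries were within 0.0215 of each other, so that almost all assigned Cdh18 reads were from 129S in both lines and treatments. Of the other cadherins of the chromosome that were measured, Cdh6 was among the 58 at 0.651 ± 0.0586, and Cdh10, which lies between them, was at 0.418 ± 0.0701 on the Cast side of balance.

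Sntb1, a syntrophin that ties signalling proteins to the dystrophin complex at the membrane, came next at 0.964 ± 0.0108 (SD, n = 8; chr15:55639153-55906949). It read 0.976, 0.975, 0.975 and 0.970 in WT and 0.958, 0.958, 0.949 and 0.955 in SpenKO, in the order without and then with doxycycline. Every WT library was thus above every SpenKO library, by a small step. Its left neighbour Mtbp, which acts in the firing of replication origins, was also a member at 0.666 ± 0.0139, while Zhx2 to its right was at 0.416 ± 0.0256. Col22a1, a collagen of tissue junctions, averaged 0.888 ± 0.0313. Its WT libraries read 0.861, 0.867, 0.830 and 0.913 and its SpenKO libraries 0.910, 0.903, 0.907 and 0.914, which overlapped.

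**Figure D1:**
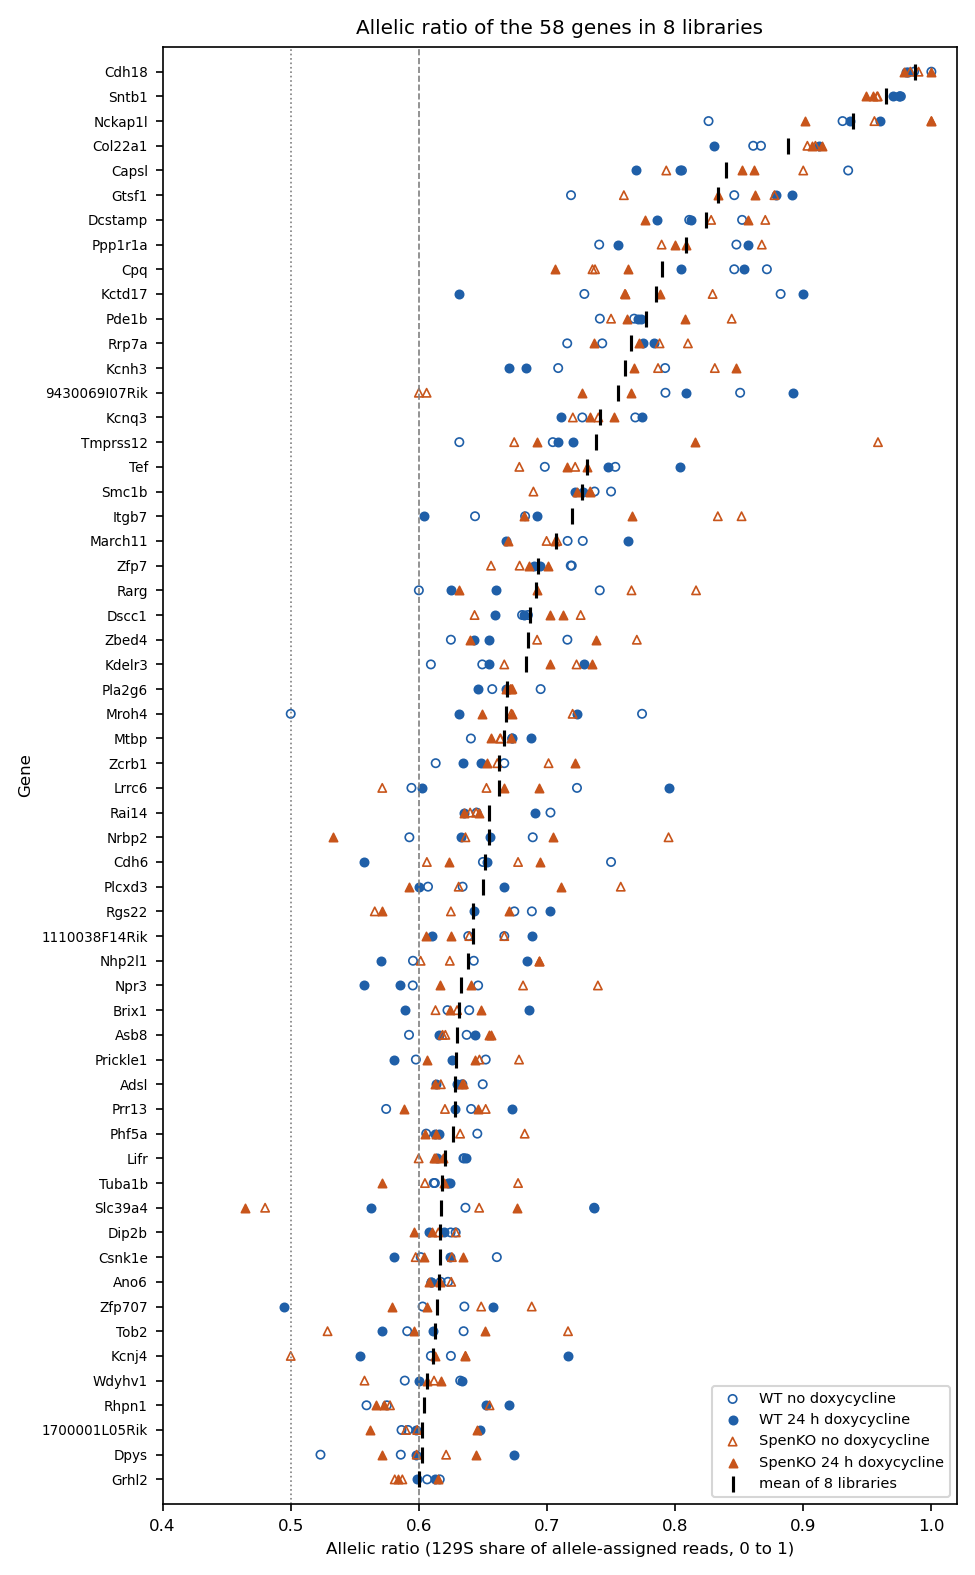
Allelic ratio (129S share, 0 to 1) on the x axis for each of the 58 genes on the y axis, with open circles for WT and open triangles for SpenKO without doxycycline and filled ones for 24 h of it; black bars are the means of 8 libraries. The points of Cdh18 and Sntb1 are tightly packed near 1, those of Tmprss12 and 9430069I07Rik spread over 0.327 and 0.292, and 5 of all 464 points lie at or below the dotted line at 0.5.

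The receptors and signalling list held the most members, 11 of 33 measured genes (33.3%), against 12.7% of the whole table. This list was drawn up with these values in view, so its share is a description only. Its median was 0.549, and 3 of its genes were biased to Cast, the lowest being Lrrk2 at 0.251. Nckap1l, a subunit of the actin-regulating WAVE complex best known from blood cells, averaged 0.939 ± 0.0565 (SD, n = 8). It read 0.826 and 0.931 in untreated WT, 0.960 and 0.936 in treated WT, 0.956 and 1.00 in untreated SpenKO and 0.902 and 1.00 in treated SpenKO. The libraries differed by 0.174, yet none came near balance. Ppp1r1a, an inhibitor of protein phosphatase 1, averaged 0.808 ± 0.0467, and Pde1b, a calmodulin-dependent cyclic nucleotide phosphodiesterase, 0.777 ± 0.0334. Lifr, the receptor for the LIF that is added to the medium to hold embryonic stem cells in their state, had a modest but tight bias. It read 0.635 and 0.635 in untreated WT, 0.637 and 0.614 in treated WT, 0.613 and 0.5998 in untreated SpenKO and 0.612 and 0.619 in treated SpenKO. These 8 values span 0.0371, and 1 of them falls just short of 0.6. Rhpn1, Nrbp2, Plcxd3, Rgs22, Npr3, Prickle1, a planar polarity gene, and Csnk1e, a casein kinase, were the other members of this list at 0.604 to 0.655.

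Germline and genome stability genes gave 4 of 21, with a list median of 0.530 and a lowest gene, Mei1, at 0.313. Gtsf1, which acts in small-RNA silencing of transposons, averaged 0.833 ± 0.0620, with 0.719 in replicate 2 of untreated WT as its lowest and 0.891 in replicate 2 of treated WT as its highest library. Smc1b, a cohesin subunit of meiosis, averaged 0.727 ± 0.0176, and Dscc1, which serves sister chromatid cohesion at replication, 0.686 ± 0.0272. All 8 libraries were above 0.6 for each of Gtsf1, Smc1b, Dscc1 and Mtbp.

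Among channels and transporters, 5 of 22 were members. The voltage-gated potassium channel genes Kcnh3 and Kcnq3 averaged 0.761 ± 0.0665 and 0.741 ± 0.0227. The inward rectifier Kcnj4 averaged 0.611 ± 0.0635 and the zinc importer Slc39a4 0.618 ± 0.106. Slc39a4 read 0.636, 0.737, 0.562 and 0.737 in WT and 0.647, 0.480, 0.464 and 0.676 in SpenKO, and so crossed balance in 2 libraries. Ano6, a membrane lipid scramblase, averaged 0.616 ± 0.00629, and at 0.608 to 0.625 it had the smallest range of the 58.

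Enzymes of metabolism gave 4 of 32. Cpq, a secreted carboxypeptidase, averaged 0.790 ± 0.0627 over a gene at chr15:33083128-33594552 whose neighbours Sdc2 and Mtdh were near balance at 0.530 ± 0.0217 and 0.525 ± 0.0134. The other member enzymes were the phospholipase gene Pla2g6 at 0.669 ± 0.0139, the purine synthesis gene Adsl at 0.628 ± 0.0129 and the pyrimidine breakdown gene Dpys at 0.602 ± 0.0461. All of the 4 members but Dpys had 8 of 8 libraries above 0.6.

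RNA and translation genes gave 6 of 44, and chromatin and transcription genes 6 of 50, shares close to the 12.7% of the whole table. In the first group stood Rrp7a, a ribosomal RNA processing factor, at 0.765 ± 0.0310, Zcrb1 of the minor spliceosome at 0.663 ± 0.0350, Nhp2l1, Brix1 of ribosome assembly, the splicing factor gene Phf5a and Tob2, the last 4 at 0.613 to 0.638. In the second stood Tef, a circadian bZIP factor, at 0.731 ± 0.0382, Zfp7, the retinoic acid receptor gene Rarg at 0.692 ± 0.0765, Zbed4, Zfp707 and Grhl2, a factor of epithelial cells. The lists were drawn up from general knowledge with these values in view, so the share of members in a list may reflect how it was filled. They hold 41 of the 58 genes. Among the other 17 were Capsl at 0.840 ± 0.0573, Dcstamp, which acts in cell fusion, at 0.824 ± 0.0340, and Kctd17 at 0.785 ± 0.0866.

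By size, 3 of the 58 means were at 0.9 or more, 5 from 0.8 to 0.9, 12 from 0.7 to 0.8, 14 from 0.65 to 0.7 and 24 from 0.6 to 0.65. Bias was thus mostly moderate, and the median of the 58 means was 0.662. On the Cast side 5 genes were at or below 0.2, against 8 at or above 0.8 on the 129S side, and the most extreme was Fam83a at 0.113. The threshold cuts a continuous distribution. Just inside lay Grhl2 at 0.6001, Dpys at 0.602 and 1700001L05Rik at 0.602, and just outside Gxylt1 at 0.599, Fmnl3 at 0.599 and Grasp at 0.599. Over all 458 genes the median mean ratio was 0.514, with 275 genes above 0.5 and 183 below it.

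**Figure D2:**
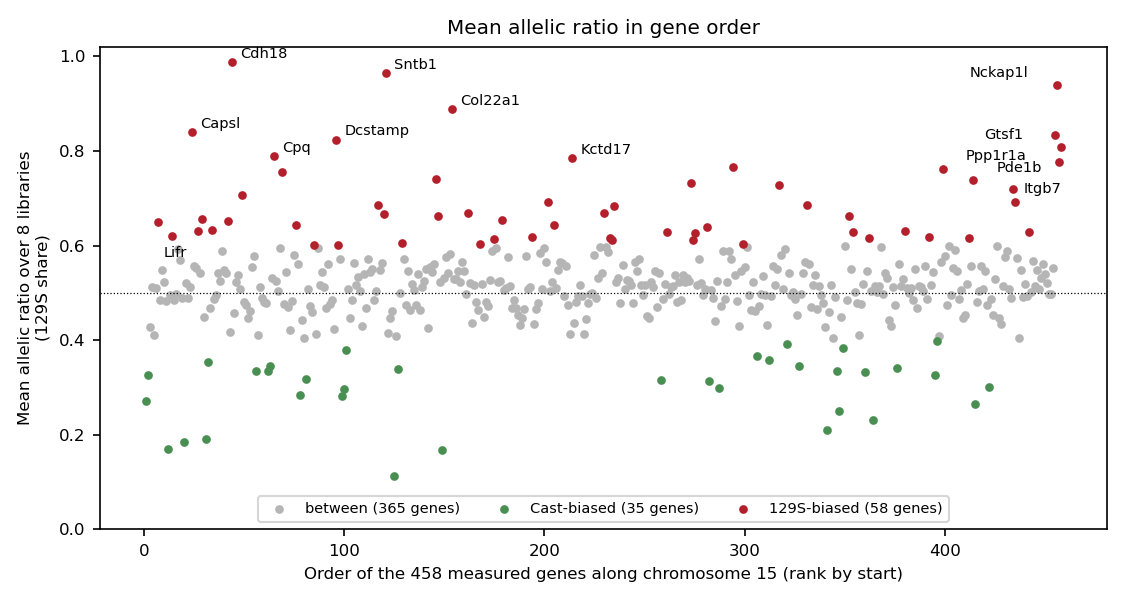
Mean allelic ratio over 8 libraries (y axis) against the order of the 458 genes along chromosome 15 (x axis), each point 1 gene, in red the 58 genes at 0.6 or more, in green the 35 at 0.4 or less and in grey the rest. Red points occur along the whole chromosome among grey ones, with 4 together at the right end.

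The biased genes were spread over the measured chromosome, from Plcxd3 at 4375490 to Ppp1r1a at 103537992 (mm10). They made up 9.30% to 16.3% of the measured genes in the 5 bins of 20 Mb up to 100 Mb, and 9 of 47 (19.1%) beyond it. Of the 58 genes, 18 (31.0%) had another of them as a direct neighbour in the table, against 89 of the 400 other genes (22.3%) that had one of the 58 beside them. These 18 genes formed 7 runs. The longest was the last 4 genes of the table, Gtsf1, Nckap1l, Pde1b and Ppp1r1a, at chr15:103402458-103537992, with means of 0.777 to 0.939, beside Itga5 at 0.552. Runs of 3 were Csnk1e, Kcnj4 and Kdelr3, and Tef, Tob2 and Phf5a. Pairs were Dcstamp and Dpys, Mtbp and Sntb1, Kcnq3 and Lrrc6, and Itgb7 and Rarg. Most members stood alone, and the median ratio of the genes next to a member was 0.541, against 0.512 for the genes next to the others. Both medians include neighbours that are members themselves, beside 18 members and 89 of the others, so they are in part set by the rule.

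Of the 58 genes, 57 are protein-coding in GENCODE M21, and 1700001L05Rik is a long intergenic RNA. The median gene span was 23325.5 bases, against 25011 for genes between the cuts and 51512 for Cast-biased genes. Spans over 100 kb were found in 14 of 58 (24.1%), against 52 of 365 (14.2%) and 12 of 35 (34.3%). On the opposite strand, 22 of 58 (37.9%) overlapped an annotated gene, against 94 of 365 (25.8%) and 9 of 35 (25.7%). Overlaps of any length were counted, down to 1 base for Kcnh3 with Mcrs1, and their relation to gene span was not tested. 9430069I07Rik lies with its whole 8823 bases inside Matn2, whose ratio was 0.595 ± 0.0348, and Prr13 is overlapped over all of its 3638 bases by Gm26518. The kit keeps strand, but whether the counting used it is not given in the sources used here, so reads of overlapping partners may be shared. Reads of Tuba1b and of Nhp2l1, which have near-identical copies elsewhere, are uncertain in the same way.

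None of the imprinted genes or Peg13 cluster genes that were measured was a member: Trappc9 and Ago2 were at 0.529 and Slc38a4 at 0.497. Of 12 measured feeder fibroblast markers 1 was a member, Npr3, a clearance receptor for natriuretic peptides. Their median was 0.539, from 0.327 for Ghr to 0.633 for Npr3, and by library it ran from 0.519 to 0.556. Of 11 embryonic stem cell markers 3 were members, Gtsf1, Lifr and Grhl2. The median of the 11 was 0.549, and the lowest was Zfp706 at 0.459. Of 11 neural markers 1 was a member, Kcnq3, the only one above 0.5. The neural median was 0.422, and 4 of these markers were biased to Cast, the lowest being Slc1a3 at 0.183. In libraries from whole dishes, fewer cells of a type and less RNA per cell cannot be told apart, and the part of feeder RNA in the ratios was not tested.

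The choice by the mean over these libraries favours high values in each of them, so the counts per library are a description only. Of the 464 values of the 58 genes, 459 were above 0.5 and 406 were at least 0.6. In 54 genes all 8 libraries were above 0.5, and in 33 all were at least 0.6. The 5 values at or below 0.5 belonged to Mroh4, Slc39a4, Zfp707 and Kcnj4. The 8 libraries of a gene lay within 0.1 of each other in 27 genes and spread by more than 0.2 in 10. After Ano6 the narrowest were Cdh18, Sntb1, Dip2b and Grhl2, and the widest were Tmprss12, 9430069I07Rik, Mroh4, Slc39a4 and Kctd17. Whether these widths follow read depth was not tested. The width of Tmprss12, a serine protease gene, came from its SpenKO libraries, which read 0.958, 0.674, 0.816 and 0.692 against 0.705, 0.632, 0.708 and 0.720 in WT. For Kctd17, an adaptor of a ubiquitin ligase, it came from WT, at 0.882, 0.729, 0.900 and 0.632. The median SD between replicates was 0.0353 for the 58 genes, 0.0234 for the genes between the cuts and 0.0295 for the Cast-biased genes.

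When the genes were instead chosen on the 4 WT libraries alone, 63 of the 458 passed. Their SpenKO libraries averaged above 0.5 in all 63 and at least 0.6 in 49. The lowest of them in SpenKO was Polr2k at 0.521. Chosen on SpenKO alone, 61 of the 458 passed, of which 61 were above 0.5 and 49 at least 0.6 in WT, the lowest being Slc52a2 at 0.515. Of all 458 genes, 275 had a mean above 0.5 over the 8 libraries. Both lines carry the same strain copies and were processed alike, so reads lost in mapping would recur in both. These counts are therefore a description and no test. Over all 458 genes the line means correlated by 0.946, a description over genes that share libraries. The 2 lines differed by less than 0.05 in 47 of the 58 genes, and the share over all 458 genes was not counted. The median absolute difference between the lines was 0.0212 in the 58 genes and 0.0149 in all genes, so the members were not the steadier ones.

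**Figure D3:**
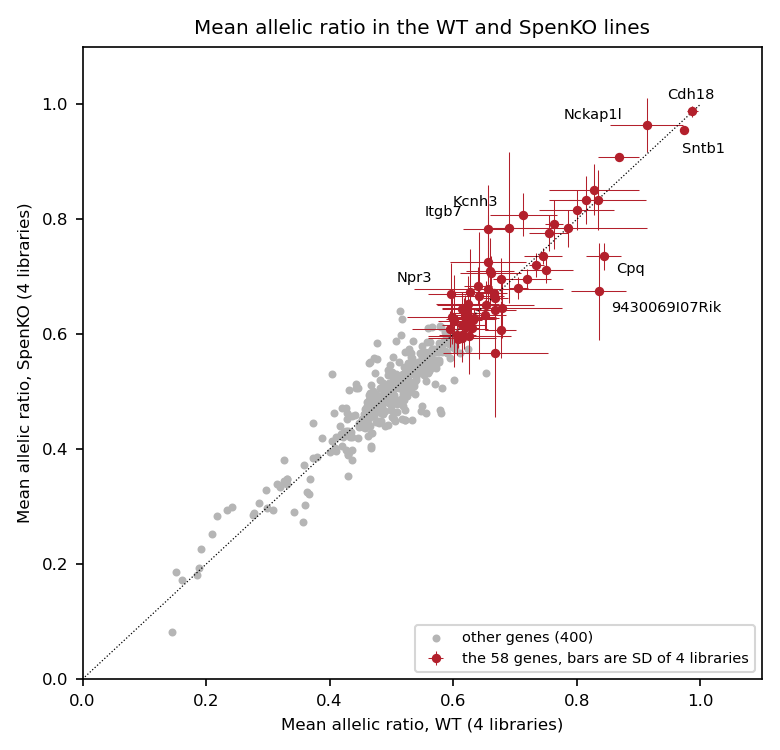
Mean allelic ratio of each gene in the 4 WT libraries (x axis) and in the 4 SpenKO libraries (y axis), red for the 58 genes with SD bars over 4 libraries and grey for the other 400; the dotted line marks equal values. Most red points lie near the line; farthest from it are 9430069I07Rik, Cpq and Slc39a4 (0.668 in WT, 0.567 in SpenKO) below and Itgb7, Kcnh3, Tmprss12 (0.691 and 0.785) and Npr3 above, with names drawn for some.

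Whether the ratios moved with Xist induction or differed between the SpenKO and WT lines was tested for all 458 genes in 1 limma fit. Adjustment was over all of them, with a threshold of 0.05 on the adjusted p. Loss of Spen and other differences between the lines cannot be told apart here. The 6 comparisons were the effect of 24 h of doxycycline in each line, the difference between those effects, SpenKO against WT without and with doxycycline, and SpenKO against WT averaged over both. In each of the 6, 0 of the 58 genes were called in limma, as were 0 of all 458 (0%), so the members' count equals the background. At an unadjusted p under 0.05 stood 2 members with doxycycline in WT, 4 with doxycycline in SpenKO, 3 for the difference of these effects, 6 and 4 for the lines without and with doxycycline, and 5 averaged. The counts over all 458 genes were 18, 24, 22, 35, 32 and 46 in the same order. The median 95% interval of a member's difference was ± 0.0777 in comparisons of 2 against 2 libraries and ± 0.0550 in the averaged one. This width varied with the spread of each gene, and larger differences could still miss the adjusted threshold, as those of 9430069I07Rik below.

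After 24 h of doxycycline the median member changed by -0.00563 in WT and by -0.00143 in SpenKO, against 0.000846 and -0.00114 over all 458 genes. The treated and untreated libraries did not overlap in 20 of the 58 genes in WT, near the 31.9% of all genes, and in 17 of the 58 in SpenKO, near the 34.7% of all. In WT the member closest to a call was Rhpn1. It read 0.559 and 0.575 without doxycycline and 0.653 and 0.671 with it, with no overlap, a difference of 0.0946 ± 0.0268 (SE; limma adjusted p = 0.933). In SpenKO it read 0.577 and 0.655 without and 0.567 and 0.573 with doxycycline, and the difference of the effects was -0.141 ± 0.0379 (limma adjusted p = 0.917). Rrp7a stood at 0.0499 ± 0.0192 in WT and Dpys at 0.0815 ± 0.0385, both with a limma adjusted p of 0.933. For Rrp7a the SpenKO effect minus the WT effect was -0.0947 ± 0.0272, and for Zfp7 it was 0.0523 ± 0.0210 (limma adjusted p = 0.917 for both).

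In SpenKO the member closest to a call after doxycycline was 9430069I07Rik, at 0.606 and 0.6 without and 0.766 and 0.727 with it. The difference was 0.144 ± 0.0341 (limma adjusted p = 0.441), and it did not pass. Itgb7 was at -0.118 ± 0.0398 and Npr3 at -0.0819 ± 0.0279 (limma adjusted p = 0.699 for both). Both had higher ratios in the untreated SpenKO libraries than in any other group.

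**Figure D4:**
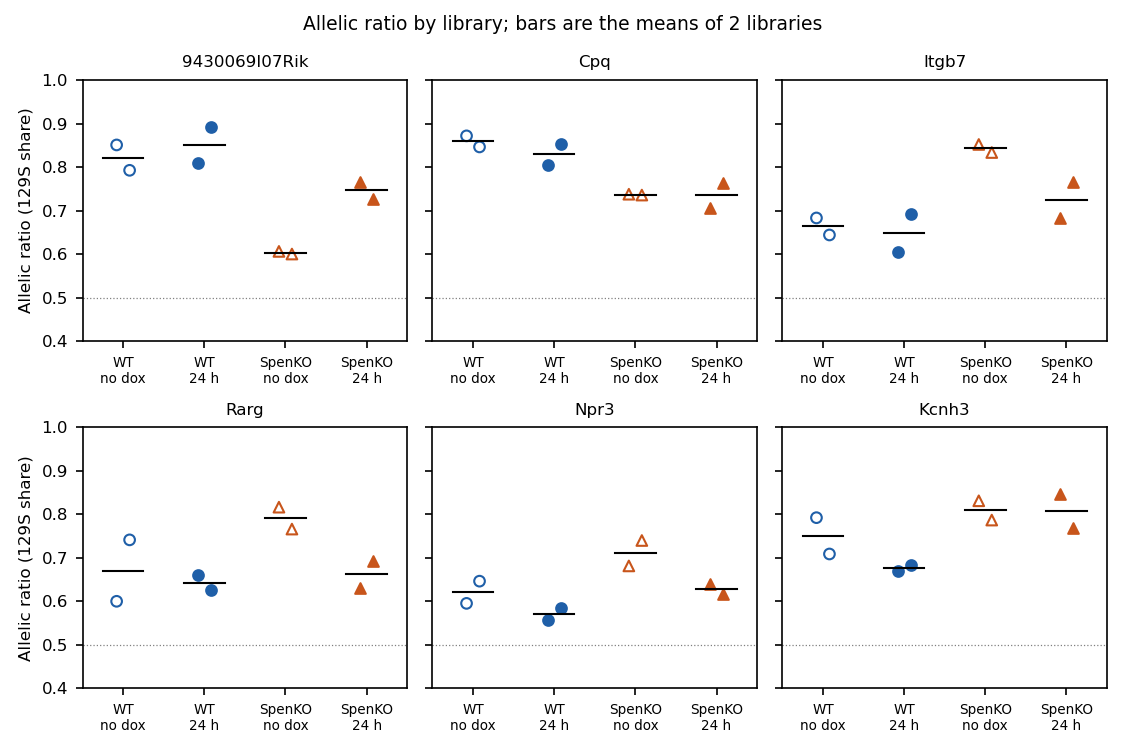
Allelic ratio (y axis) of 6 of the 58 genes in the 4 groups (x axis), each point 1 library and each bar the mean of 2; dox is doxycycline. 9430069I07Rik is lowest in untreated SpenKO at 0.606 and 0.6, Cpq is lower in all 4 SpenKO libraries than in WT, and Itgb7 is highest in untreated SpenKO at 0.852 and 0.833.

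Between the lines, 9430069I07Rik had the largest difference of the 58. It read 0.851 and 0.792 in untreated WT, 0.809 and 0.892 in treated WT, 0.606 and 0.6 in untreated SpenKO and 0.766 and 0.727 in treated SpenKO. All WT libraries were above all SpenKO libraries, and all 8 were at or above 0.6. Averaged over doxycycline, SpenKO minus WT was -0.161 ± 0.0241 (limma adjusted p = 0.113), and without doxycycline it was -0.219 ± 0.0341 (0.227). Cpq showed the same order. It read 0.872 and 0.846 in untreated WT, 0.804 and 0.853 in treated WT, 0.737 and 0.736 in untreated SpenKO and 0.706 and 0.764 in treated SpenKO. Its averaged difference was -0.108 ± 0.0186 (limma adjusted p = 0.137), with -0.122 ± 0.0263 without doxycycline (0.278) and -0.0941 with it (0.582).

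Itgb7, the beta chain of lymphocyte homing integrins, lay the other way. It read 0.683 and 0.644 in untreated WT, 0.604 and 0.692 in treated WT, 0.852 and 0.833 in untreated SpenKO and 0.682 and 0.767 in treated SpenKO. The lines were apart without doxycycline, by 0.179 ± 0.0398 (limma adjusted p = 0.278), and overlapped with it, and the averaged difference was 0.128 ± 0.0282 (0.243). Its neighbour Rarg was also highest in untreated SpenKO, at 0.816 and 0.766, against 0.6 and 0.741 in untreated WT, 0.660 and 0.625 in treated WT and 0.632 and 0.692 in treated SpenKO. Npr3 averaged 0.0736 ± 0.0197 higher in SpenKO and Kcnh3 0.0946 ± 0.0270 higher (limma adjusted p = 0.306 for both), neither passing. With doxycycline Kcnh3 differed by 0.131 ± 0.0382 and Rhpn1 by -0.0918 ± 0.0268 (limma adjusted p = 0.582 for both).

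Libraries of the lines did not overlap in 20 of the 58 genes without doxycycline and in 17 with it, near the 38% and 32.1% of all 458. With all 4 libraries a line they did not overlap in 3 of the 58, Cpq, 9430069I07Rik and Sntb1, near the 5.02% of all. For Sntb1, whose values are given above, the averaged difference was -0.0192 ± 0.00900 (limma adjusted p = 0.592). On a logit scale, which stretches ratios near 1, the limma adjusted p was 0.0434, and over the 13 alternatives of this gene it ran from 0.0434 to 1.00. The median absolute averaged difference was 0.0212 in the 58 genes and 0.0149 in all genes, with median signed differences of 0.000637 and 0.000762.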

How the data were processed

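RNA bound to chromatin was sequenced, per the labels' protocols, as paired reads of 81 bases from strand-keeping total RNA libraries. The submitters' processing notes name Bowtie2 2.3.2, STAR 2.4.2a, featureCounts, SAMtools, bedtools, edgeR and the build mm10, with no roles; how reads were assigned to alleles is not given in the sources used here. The authors deposited allelic ratios, fractions from 0 to 1, for 458 chromosome 15 genes in 8 libraries, with 4 columns of group means that equal the means of the replicates and were not used further. The column names match the titles of WT and SpenKO samples in construct, doxycycline and replicate number, without the words WT or KO, and the group mean columns name SpenKO; the lines were assigned on that basis. All 4 group mean columns also carry the prefix endo. Columns with doxycycline name no time and were read as 24 h, since the X table names its 3 h columns. The labels tie this table to 4 samples with an Xist transgene, whose titles match none of its columns, so the assignment of lines is uncertain. Those samples were not analysed here.

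Genes with a mean of at least 0.6 over the 8 libraries were kept as members. The members and lists were chosen with earlier results of these data known. Limma 3.58.1 (R 4.3.3) was fitted to the raw ratios of all genes, with 4 groups in 1 fit and Benjamini-Hochberg adjustment; the code was tested on simulated data. Named were the 10 highest members, the 3 genes on either side of the threshold, Cdh18, Sntb1, Cpq and Itgb7, the 5 members of widest and narrowest range, the 3 members of smallest p in each comparison, and list members as examples; their neighbours and Rarg in the comparison were chosen after their values were seen. Alternatives were a replicate block, a logit scale, a trended robust prior, another adjustment, a filter on replicate SD, other thresholds, centring, fewer libraries in the fit and leaving out each library. Gene types come from GENCODE M21 and promoters from RefSeq.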

Additional observations from a re-analysis of the deposited data

How the results depend on the processing

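The members numbered 129 at a threshold of 0.55, 34 at 0.65, 20 at 0.7, and 33 when every library had to reach 0.6. They numbered 59 by the median, 63 and 61 on WT or SpenKO alone, 60 without treated libraries, 54 with replicate SD at most 0.1, and 49 after centring each library on its median. Leaving out each library gave 56 to 63, of which 55 to 58 were among the 58. Of 164 counts of calls under 14 settings, 162 were 0, and leaving out each library gave 0 to 0 calls in each comparison. The other 2 counts were 1 gene of all and 1 of the members, Sntb1, in the averaged line comparison on the logit scale; its ratios lie near 1, and the cause was not tested. The replicate block left 0 calls. Deviations of replicates with the same number correlated by -0.0675 to 0.129 over the group pairs, so the numbers are not taken as pairs. A group left with 1 library was assumed to vary like the others. The depth behind each ratio, which was not worked out, limits all of these values.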
